A study of Mus musculus with 6 samples.

Results

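The aminoacyl-tRNA synthetases are the enzymes that charge each transfer RNA with its amino acid. The list holds 36 genes, 20 for the cytosolic enzymes and 16, with names ending in 2, for the mitochondrial ones, taken by symbol from a table of 30587 rows, and every one of the 36 had a row and enough reads to be tested. RNA was sequenced from dendritic cells grown from the bone marrow of C57BL/6 mice. KO cells (CD11c-Cre;Hif2afl/fl, 3 libraries) carry floxed alleles of Hif2a and a Cre transgene driven by the promoter of CD11c, a dendritic cell integrin, and WT cells (Hif2afl/fl, 3 libraries) carry the floxed alleles without Cre. Every culture of both genotypes had been given dimethyloxalylglycine (DMOG), which stabilises HIF α subunits, for 24 h and then the glycolipid α-galactosylceramide (α-GalCer) for 4 h, so no untreated state is described here. The age of the mice is not given in the labels. The study asked how HIF-2α, the oxygen-regulated transcription factor that Hif2a encodes, affects the way dendritic cells prime glycolipid responses.

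Charging takes place in the cytosol and, with a largely separate set of nuclear-encoded enzymes, inside mitochondria, where the transcripts of the mitochondrial genome are translated. Lysyl- and glycyl-tRNA synthetases serve both places from a single gene each, Kars and Gars. Several cytosolic enzymes sit in one multisynthetase complex held together by scaffold proteins. Many synthetase genes are induced by ATF4, the transcription factor of the integrated stress response, which the kinase GCN2 sets off when uncharged transfer RNAs accumulate. Wars, for the cytosolic tryptophanyl enzyme, is also known as an interferon-γ-induced gene.

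Total counts ran from 16826800 to 17884160 in KO libraries and from 14668641 to 17041448 in WT libraries. Epas1, the official symbol of Hif2a, had 175, 214 and 198 reads in KO libraries and 339, 352 and 349 in WT libraries (log2 fold change -0.98 ± 0.12, edgeR adjusted p = 3.45e-05). A read was found in 25408 rows in WT 2 and in 22275 in KO 1, against 18763 to 19513 in the other libraries. The 8 dendritic cell markers checked were all detected and summed to 5255 to 5920 CPM in KO libraries and 5778 to 5951 CPM in WT libraries, where CPM is a count scaled to a common library size. The sums hide calls on both sides. Ccr7, Zbtb46 and Flt3 were called higher (log2 fold changes 0.55, 0.50 and 0.23) and H2-Ab1, Irf4 and Cd74 lower (-0.49, -0.48 and -0.30). Itgax and Batf3 were not called. The 8 macrophage markers summed to more, 17797 to 18025 CPM in KO libraries and 21313 to 23840 CPM in WT libraries, most of it from Lyz2 (14223 to 14625 CPM in KO libraries and 17808 to 20333 CPM in WT libraries). Lyz2 was the 1 macrophage marker called lower, while Fcgr1, C1qa and C1qb were called higher, with log2 fold changes of 2.96, 0.64 and 0.47, and the other 4 were not called. Markers of plasmacytoid dendritic cells summed to 316 to 328.3 CPM in KO libraries and 128.7 to 160.6 CPM in WT libraries, with Siglech, Ccr9 and Ly6d under the count filter. Bst2, which is also interferon-induced, made up 287.1 to 295.4 CPM of that sum in KO libraries and 106.1 to 137.2 CPM in WT libraries. Markers of mast cells and basophils summed to 81.9 to 89.0 CPM in KO libraries and 50.2 to 57.5 CPM in WT libraries, with Fcer1a and Ms4a2 under the filter. Most of that sum was Kit, with 71.6 to 77.2 CPM in KO libraries and 45.5 to 50.9 CPM in WT libraries. Kit, Gata2, Prss34 and Mcpt8 were called higher (log2 fold changes 0.60, 0.89, 1.02 and 2.02), and Cpa3 was not called. For each of the 5 tested genes of this list, KO libraries lay entirely above WT libraries. Granulocyte markers summed to 35.3 to 49.6 CPM in KO libraries and 29.3 to 40.7 CPM in WT libraries, with Ly6g, Mpo, Elane and Retnlg under the filter. Camp and Ngp were called higher (log2 fold changes 1.56 and 0.57), and S100a8 and S100a9 were not called. B cell markers reached at most 2.43 CPM and T and NK cell markers at most 2.01 CPM in any library. The part of these cell types in the values that follow was not tested.

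Among the 36 synthetases, 9 were called higher in KO cells and 2 lower, at an adjusted p under 0.05. Over all 13249 tested rows, 13.8% were called higher, 12.0% lower and 25.8% in either direction, against 25%, 5.56% and 30.6% of the synthetases, so the share called in either direction lay near the background. The median log2 fold change, KO over WT, was 0.10 over the cytosolic enzymes, 0.065 over the mitochondrial ones (0.11 without Lars2, and 0.204 over all 16 when WT 2 is left out) and -0.009 over all tested rows. KO libraries lay entirely above WT libraries for 12 synthetases (33.3%, against 20.5% of all tested rows) and below for 4 (11.1%, against 20.0%). The calls held 2 changes that stood under all 16 alternative settings, those of Aars in the cytosolic list and Ears2 in the mitochondrial list. In bulk RNA, fewer cells of a type and less RNA per cell cannot be told apart, which holds for every value here.

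**Figure D1:**
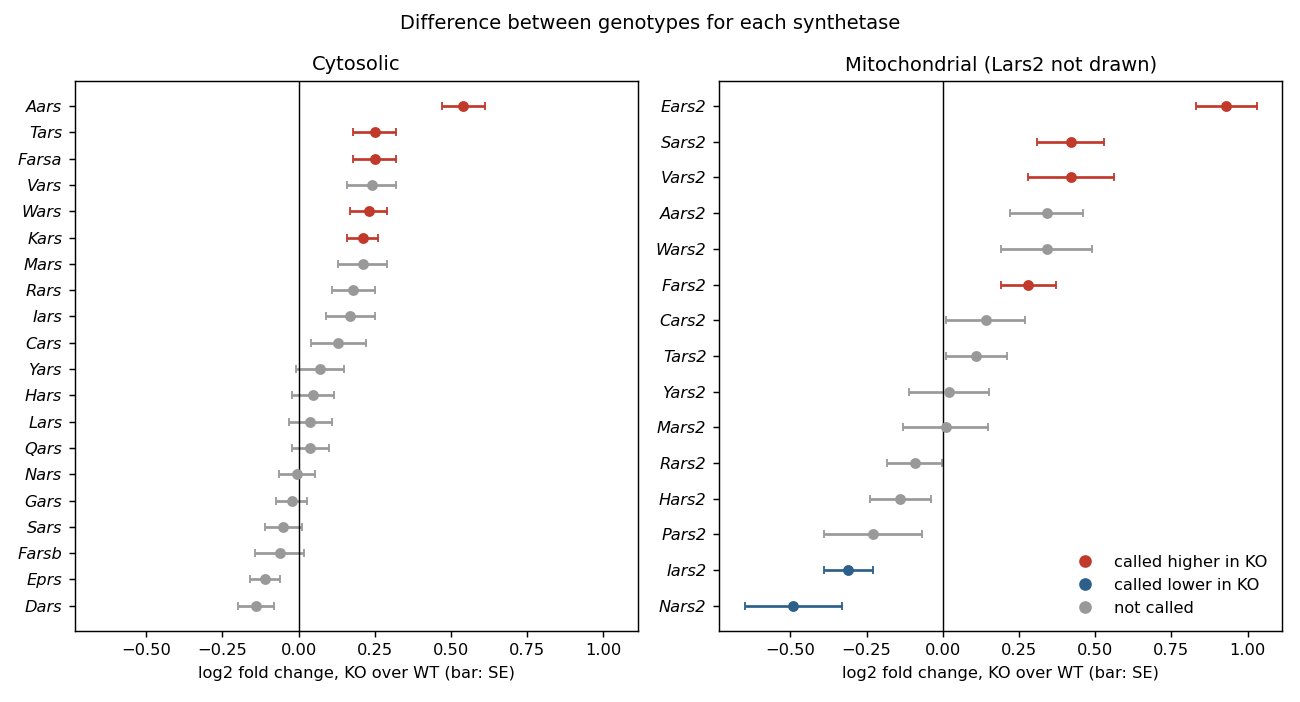
Log2 fold change (KO over WT) of each synthetase gene with its SE as a bar, cytosolic on the left and mitochondrial on the right, coloured by call. Aars (0.54) and Ears2 (0.93) lie farthest to the right in their panels, and Nars2 (-0.49) and Iars2 (-0.31) are the called genes on the left of 0; Lars2 is not drawn.

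Most cytosolic genes were not called, and Aars had the largest log2 fold change among them. Of 20 tested, 5 were called higher in KO cells, 0 were called lower and 15 were not called. The share called in either direction was 25%, near the 25.8% of all tested rows. On the higher side alone it was 25% against 13.8%, and on the lower side 0% against 12.0%. At an unadjusted edgeR p under 0.05 the count on the lower side was 1, Dars (adjusted p = 0.0842), and DESeq2 and limma-voom also called 0 lower. The number called higher was 1 without KO 3, 1 without WT 2 and 3 without WT 3, and it was 8 without KO 1 or with scaling to library size alone. Summed over the list, KO libraries held 1592.4, 1694.5 and 1696.4 CPM and WT libraries 1565.1, 1522.2 and 1514.1 CPM. Without Aars the sums were 1390.3, 1456.1 and 1464.6 CPM in KO libraries and 1408.4, 1374.5 and 1356.4 CPM in WT libraries, where KO 1 lay below WT 1.

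Aars (chromosome 8, 111033144 to 111057664, plus strand, GRCm38) encodes alanyl-tRNA synthetase, which also clears wrongly attached serine from its transfer RNA. It had 202.1, 238.4 and 231.8 CPM in KO libraries 1, 2 and 3 and 156.7, 147.8 and 157.7 CPM in WT libraries 1, 2 and 3. The lowest KO library was well above the highest WT library, and KO 1 was the lowest of its group. The log2 fold change was 0.54 ± 0.07, or 1.45-fold (edgeR adjusted p = 9.76e-05), and it lay between 0.43 and 0.61 under the alternatives. On the same strand, 14.3% of the exon bases of Aars in the annotation are shared with Exosc6. No row of the counts carried that symbol, so reads of that stretch cannot be assigned with certainty.

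Wars (chromosome 12, 108860030 to 108894174, minus strand) encodes the tryptophanyl enzyme. KO libraries had 90, 101.8 and 95.9 CPM and WT libraries 83.4, 82.0 and 80.5 CPM, with no overlap and with KO libraries more spread than WT libraries. The log2 fold change of 0.23 ± 0.06, or 1.17-fold, passed (edgeR adjusted p = 0.0127) but did not without KO 3 or without WT 2, and adjusted p ran from 0.00241 to 0.0591 over the alternatives. Other interferon-γ-induced genes, from a list of 8 of which 7 were tested, gave 5 calls higher and 1 lower. These were 71.4% and 14.3%, against 13.8% and 12.0% of all tested rows, and the median log2 fold change was 0.385. Tap1 and Gbp2, for a peptide transporter and a guanylate-binding protein, had log2 fold changes of 1.01 and 0.46, and Ciita, for the class II transactivator, fell by 0.86 on the log2 scale. Ido1, for a tryptophan-degrading enzyme, was the tested gene of the list that was not called (log2 fold change -0.0033).

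Kars, Tars and Farsa were the other cytosolic genes called higher. Kars (chromosome 8, 111993443 to 112011323, minus strand), for the lysyl enzyme of cytosol and mitochondria, had 91.5, 92.2 and 97.0 CPM in KO libraries and 82.7, 82.5 and 78.1 CPM in WT libraries. The genotypes differed by a log2 fold change of 0.21 ± 0.05 (edgeR adjusted p = 0.0147). Gars, the other gene that serves both places, was not called, at 91.6 ± 3.26 CPM in KO and 93.1 ± 2.39 CPM in WT (SD, n = 3 each). Tars (chromosome 15, 11382301 to 11399665, minus strand), for the threonyl enzyme, had 46.9, 47.3 and 45.9 CPM in KO libraries and 41.8, 38.5 and 37.8 CPM in WT libraries, a log2 fold change of 0.25 ± 0.07 (edgeR adjusted p = 0.0169). The groups did not overlap in either gene. Farsa (chromosome 8, 84856989 to 84869257, plus strand) encodes the catalytic subunit of the phenylalanyl enzyme, whose other subunit comes from Farsb. It had 54.0, 53.4 and 56.7 CPM in KO libraries and 49.1, 46.7 and 42.1 CPM in WT libraries (log2 fold change 0.25 ± 0.07, edgeR adjusted p = 0.0183), while Farsb had 40.2 to 45.4 CPM in KO libraries and 40.2 to 48.4 CPM in WT libraries and was not called (log2 fold change -0.062). The difference between the subunits was not tested. All 3 calls were lost without KO 3 or without WT 2, where the calls over all rows fell to 2127 and 2416, against 3412 with every library. The log2 fold changes without KO 3 and without WT 2 were 0.18 and 0.22 for Kars, 0.26 and 0.23 for Tars and 0.22 and 0.26 for Farsa. The calls of Farsa and Tars were also lost without WT 3, at 0.20 and 0.23, and that of Tars without WT 2 and KO 1 together, at 0.23.

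The remaining 15 cytosolic genes had log2 fold changes from -0.14 to 0.24. Vars, for the valyl enzyme, was nearest to a call among them, with 37.5, 44.1 and 46.0 CPM in KO libraries and 36.1, 34.6 and 37.6 CPM in WT libraries (log2 fold change 0.24 ± 0.08, edgeR adjusted p = 0.055). KO 1 overlapped the WT range, and without KO 1 the gene passed. Rars (arginyl) and Mars (methionyl), with adjusted p of 0.0653 and 0.0706, did not overlap between genotypes and lay on the higher side (0.18 and 0.21). Dars (aspartyl) and Eprs, whose single chain joins the glutamyl and prolyl enzymes, did not overlap either and lay on the lower side: Dars had 61.6 to 63.2 CPM in KO libraries and 67.6 to 70.1 CPM in WT libraries, and Eprs 96.9 to 106.8 CPM in KO libraries and 109.4 to 111.4 CPM in WT libraries. Nars, the asparaginyl gene and the highest per kb of transcript among cytosolic genes, stood at 200.5 ± 5.22 CPM in KO and 201.2 ± 7.70 CPM in WT (SD, n = 3 each). Hars, Lars, Qars, Sars and Yars (histidyl, leucyl, glutaminyl, seryl and tyrosyl) had log2 fold changes between -0.050 and 0.070, and Cars and Iars (cysteinyl and isoleucyl) 0.13 and 0.17.

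**Figure D2:**
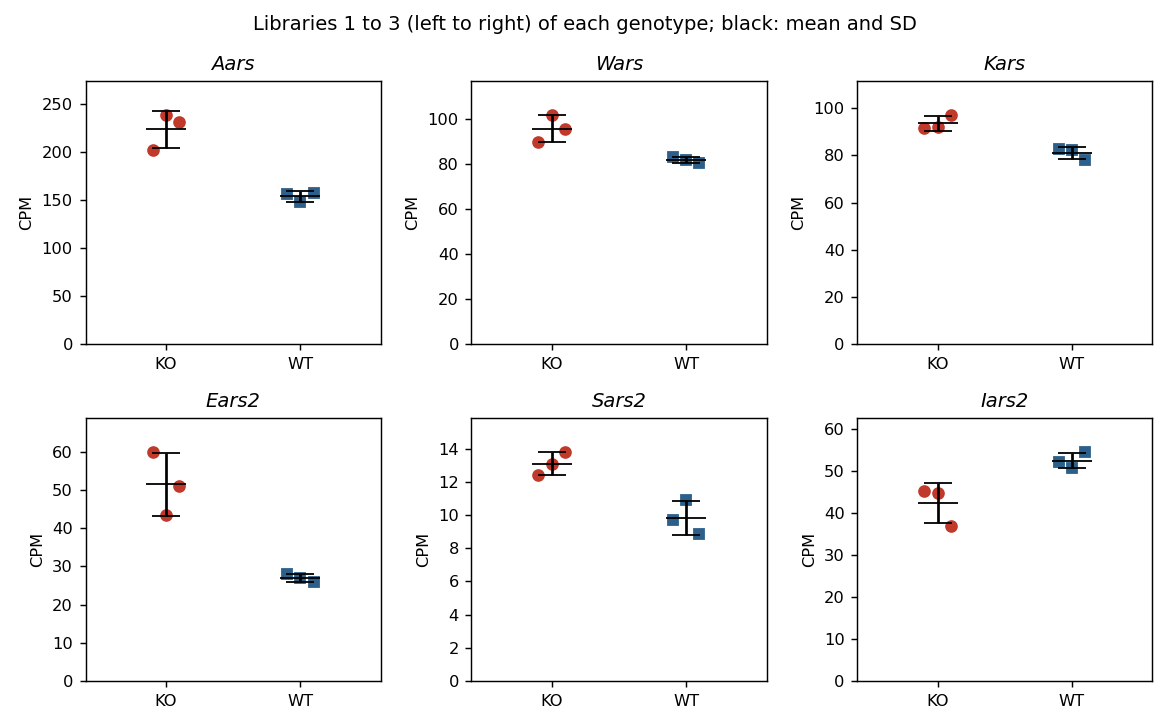
CPM of 6 synthetase genes in KO (red circles) and WT (blue squares) libraries, drawn from 0, with the mean and SD of 3 libraries in black. For Aars, Wars, Kars, Ears2 and Sars2 every KO library lies above every WT library, for Ears2 with 43.6 to 60.0 CPM in KO and 26.0 to 28.1 CPM in WT libraries, and for Iars2 every KO library lies below.

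Of the 8 enzymes of the multisynthetase complex (Eprs, Iars, Lars, Mars, Qars, Rars, Kars and Dars), 1 was called higher, Kars, and 0 lower, with a median log2 fold change of 0.104. Of the 12 cytosolic genes outside the complex 4 were called higher, with a median of 0.10. The shares called higher were 12.5% and 33.3%, against 13.8% of all tested rows. KO libraries lay entirely below WT libraries for 2 of the 8, Dars and Eprs (25%, against 20.0% of all tested rows). Outside the complex this held for 0 of 12 genes. KO libraries lay entirely above for 3 of the 8, Kars, Mars and Rars (37.5%, against 20.5%), and for 4 of the 12 (33.3%). The difference between members and other genes was not tested. None of the 3 scaffold genes (Aimp1, Aimp2 and Eef1e1) was called, and Aimp1 had the lowest p of them at 39.8 ± 0.855 CPM in KO and 44.7 ± 1.85 CPM in WT (SD, n = 3 each; edgeR adjusted p = 0.0785).

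Promoter windows were read because ATF4 and interferon signals act through short DNA elements, and because the 5 called cytosolic genes moved the same way. RefSeq windows of 300 bases on GRCm38.p6, from 250 bases before the gene start to 50 after, were held for 27 of the 36 genes, 13 cytosolic and 14 mitochondrial; Cars, Hars, Lars, Nars, Rars, Vars, Wars, Hars2 and Pars2 had none. The core of the C/EBP-ATF response element, searched as TGATGNAA on both strands, was present in 5 of the 13 cytosolic windows (Aars, Gars, Iars, Tars and Yars) and 0 of the 14 mitochondrial windows. It was present in 3.97% of all 32851 windows and in 2.80% of the 9697 tested genes with a window. Aars and Tars were called higher and Gars, Iars and Yars were not called. The core was thus present in 2 of the 8 windows of genes called higher and in 3 of the 17 windows of uncalled genes. The gamma-activated site, searched as TTCNNNGAA, was present in Aars, Kars and Nars2 and in 8.30% of all windows. Those were 2 of the 8 windows of genes called higher, 0 of the 17 of uncalled genes, and Nars2, which was called lower. Whether matches go with calls was not tested for any of the elements. The interferon-stimulated element, searched as GAAA, any 2 bases and GAAA, was present in Qars alone and in 3.44% of all windows. A match is a run of letters and says nothing of binding. In the GENCODE positions given above, Aars starts at 111033144, so its RefSeq window lies inside that span and not before it. The window of Aars (chr8:111033592-111033891, plus strand), shown because it alone held 2 matches, has the C/EBP-ATF cores in capitals, starting 112 bases before and 9 bases after the RefSeq gene start, and that of Ears2 (chr7:122067037-122067336, minus strand), shown for the largest called change, has none.
Aars: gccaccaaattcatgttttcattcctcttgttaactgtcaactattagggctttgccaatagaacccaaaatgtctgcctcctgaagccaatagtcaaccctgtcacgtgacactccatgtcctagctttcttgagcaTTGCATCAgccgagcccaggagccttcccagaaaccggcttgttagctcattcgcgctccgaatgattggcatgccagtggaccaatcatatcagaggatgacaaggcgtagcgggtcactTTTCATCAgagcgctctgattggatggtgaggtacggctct
Ears2: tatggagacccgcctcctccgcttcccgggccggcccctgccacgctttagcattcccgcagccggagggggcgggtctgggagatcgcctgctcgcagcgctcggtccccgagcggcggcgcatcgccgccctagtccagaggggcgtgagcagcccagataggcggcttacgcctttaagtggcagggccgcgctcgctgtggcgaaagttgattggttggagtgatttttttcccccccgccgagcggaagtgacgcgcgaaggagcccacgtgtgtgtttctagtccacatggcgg

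The other matches lay close to the RefSeq gene start. They began 30 bases before it in Gars, 15 before it in Tars, 7 after it in Iars and 3 after it in Yars. They are shown with 16 bases on either side, the core in capitals. Iars, Tars and one of the cores in Aars share the letters TTGCATCA, and in Yars the same letters lie on the opposite strand.
Gars, chr6:55037955-55037994, plus strand: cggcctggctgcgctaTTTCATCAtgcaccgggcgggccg
Iars, chr13:49682121-49682160, plus strand: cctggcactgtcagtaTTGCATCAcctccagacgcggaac
Tars, chr15:11399650-11399689, minus strand: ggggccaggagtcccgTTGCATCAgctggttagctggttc
Yars, chr4:129189890-129189929, plus strand: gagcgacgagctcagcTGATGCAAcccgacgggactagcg

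Calls on mitochondrial genes fell on both sides. Of 16 tested, 4 were called higher in KO cells (Ears2, Sars2, Vars2 and Fars2), 2 lower (Iars2 and Nars2) and 10 were not called. The shares were 25% higher and 12.5% lower, against 13.8% and 12.0% of all tested rows, so the lower share lay near the background. The number called higher was 1 without KO 3, 2 without WT 1, WT 2 or WT 3 and 2 with an offset for GC content and length. The number called lower was 0 without KO 3, 1 without KO 2 or WT 3, and 1 with scaling to library size alone, the DESeq2 Wald test or limma-voom. Summed without Lars2, KO libraries held 267.1, 254.7 and 258 CPM and WT libraries 225, 240 and 238 CPM.

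Ears2 (chromosome 7, 122037213 to 122067263, minus strand) encodes the glutamyl enzyme, which in mitochondria also loads glutamate on the glutamine transfer RNA for later amidation. It had 60.0, 43.6 and 51.0 CPM in KO libraries and 28.1, 26.9 and 26.0 CPM in WT libraries. The groups were far apart and KO 1 was the highest library. The log2 fold change was 0.93 ± 0.10, or 1.91-fold (edgeR adjusted p = 1.93e-05), between 0.81 and 1.04 under the alternatives. The gene starts head to head with Ubfd1, and 1.73% of its exon bases overlap that gene on the other strand. Ubfd1 was called higher too, with 59.4 ± 10.3 CPM in KO and 45.3 ± 1.83 CPM in WT (SD, n = 3 each; log2 fold change 0.39 ± 0.10, edgeR adjusted p = 0.0113); it was looked at for its position. The genes listed for completing glutamine charging and delivery in mitochondria were Gatb, Gatc and Qrsl1 for the amidotransferase, Tufm, Tsfm and Mtfmt. Against 25.8% of all tested rows, 0 of these 6 were called in either direction. Qrsl1 had the lowest p among them, at 8.62 ± 1.67 CPM in KO and 6.82 ± 0.393 CPM in WT (SD, n = 3 each; edgeR adjusted p = 0.133), and it passed without KO 2.

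Sars2, Vars2 and Fars2 were called higher at low read numbers. Sars2 (chromosome 7, 28741992 to 28753871, plus strand), for the seryl enzyme, had 12.4, 13.1 and 13.8 CPM in KO libraries and 9.70, 10.9 and 8.87 CPM in WT libraries (log2 fold change 0.42 ± 0.11, edgeR adjusted p = 0.0157), and the call was lost without KO 3 or without WT 3. Vars2 (chromosome 17, 35655634 to 35667592, minus strand), for the valyl enzyme, had 120, 114 and 140 reads in KO libraries and 86, 83 and 81 in WT libraries. The genotypes differed by a log2 fold change of 0.42 ± 0.14 (edgeR adjusted p = 0.046), and 11 of the 16 alternatives lost the call. Fars2 (chromosome 13, 36117412 to 36726280, plus strand), for the phenylalanyl enzyme, which works in mitochondria as a single chain, had 23.7, 24.0 and 27.2 CPM in KO libraries and 20.5, 20.7 and 20.5 CPM in WT libraries. The genotypes differed by a log2 fold change of 0.28 ± 0.09 (edgeR adjusted p = 0.0288), and 5 alternatives lost the call, the offset for GC content and length and the fits without KO 3, WT 1, WT 2 or WT 3. The groups did not overlap in any of the 3 genes. Aars2, for the alanyl enzyme, just missed the threshold at 10.8, 10.7 and 11.1 CPM in KO libraries and 7.57, 8.74 and 9.41 CPM in WT libraries (log2 fold change 0.34 ± 0.12, edgeR adjusted p = 0.0515), and 6 alternatives called it.

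Iars2 and Nars2 were the called genes on the lower side. Iars2 (chromosome 1, 185284726 to 185329396, minus strand), for the isoleucyl enzyme, had 45.3, 44.9 and 36.9 CPM in KO libraries and 52.2, 50.9 and 54.6 CPM in WT libraries. KO 3 was the lowest library by a margin, and the log2 fold change of -0.31 ± 0.08 (edgeR adjusted p = 0.0129) did not pass without KO 3 or without WT 3. In the annotation 22.9% of the exon bases of Iars2 overlap Rab3gap2 on the other strand, and the strand setting of the counting is not given in the sources used here; Rab3gap2 itself was not called (log2 fold change -0.11 ± 0.06). Nars2 (chromosome 7, 96951505 to 97064758, plus strand), for the asparaginyl enzyme, had 70, 62 and 71 reads in KO libraries and 93, 73 and 89 in WT libraries. It fell by 0.49 ± 0.16 on the log2 scale (edgeR adjusted p = 0.042), and 11 of the 16 alternatives lost the call.

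Lars2 (chromosome 9, 123366927 to 123462666, plus strand), for the mitochondrial leucyl enzyme, is given apart because 1 library decided its values, which was seen only after they were read. It had 5841, 2575 and 1944 reads in KO libraries and 3015, 31209 and 2323 reads in WT libraries. WT 2 held 12.8 times the median CPM of the other libraries, KO 1 was second, and the remaining 4 libraries lay between 112.7 and 178.3 CPM. The log2 fold change was -2.01 ± 0.75 and did not pass (edgeR adjusted p = 0.0653). Without WT 2 it was 0.22, on the other side of 0, and without WT 2 and KO 1 it was -0.34 (edgeR adjusted p = 0.027). It was called lower in 5 alternatives, among them those without KO 1, WT 1 or WT 3, and limma-voom gave -1.12 (adjusted p = 0.28). Among 3936 rows with a mean of at least 50 CPM in the other libraries, Lars2 ranked 3rd by the ratio of WT 2 to the others' median. The rows beside it were Gm10800, Gm23935 and CT010467.1, which the annotation types as protein-coding, miRNA and rRNA. Reads of CT010467.1, the rRNA row, numbered 18934, 11726 and 8176 in KO libraries and 13249, 104998 and 10217 in WT libraries. That is 3.24, 4.55 and 4.21 reads of it per Lars2 read in KO libraries and 4.39, 3.36 and 4.40 in WT libraries, so both rows were high and low in the same libraries. Gm10800 had 5830, 100 and 17 reads in KO libraries and 66, 20548 and 22 in WT libraries, again highest in WT 2 and then KO 1. The part of such reads in the Lars2 count was not tested, and no genotype difference is read from Lars2 here.

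**Figure D3:**
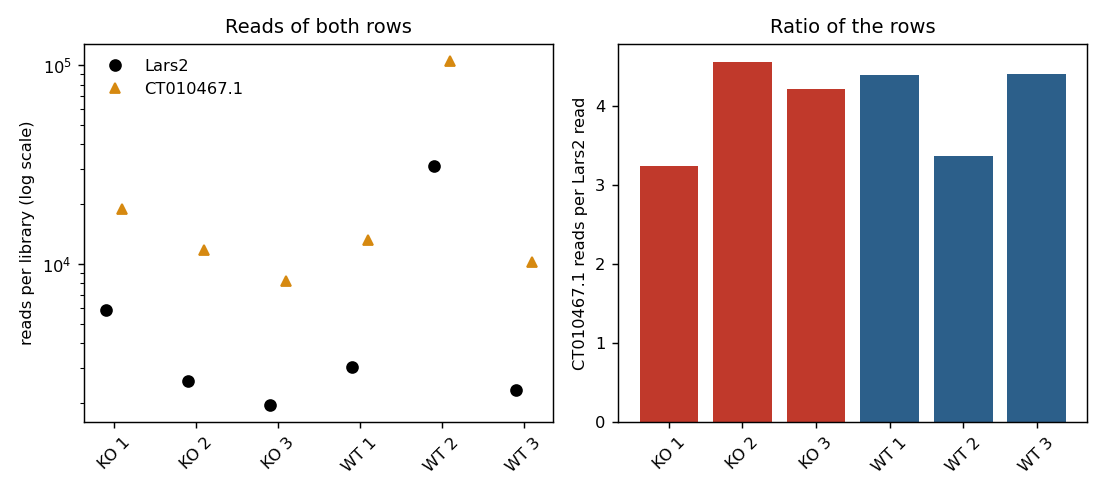
Left, reads per library of Lars2 (black circles) and of the rRNA row CT010467.1 (orange triangles) on a log axis; right, CT010467.1 reads per Lars2 read, in KO (red) and WT (blue) libraries. Both rows peak in WT 2 (31209 and 104998 reads), with KO 1 next, while the ratio stays between 3.24 and 4.55.

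The other mitochondrial genes, Cars2, Hars2, Mars2, Pars2, Rars2, Tars2, Wars2 and Yars2, were not called. Their log2 fold changes ran from -0.23 for Pars2 (prolyl) to 0.34 for Wars2 (tryptophanyl), and Wars2 had 9.48, 10.2 and 7.31 CPM in KO libraries and 6.98, 8.03 and 6.41 CPM in WT libraries, with KO 3 inside the WT range. Mars2 (methionyl) and Yars2 (tyrosyl) stood at 8.39 ± 1.08 and 9.06 ± 0.981 CPM in KO and at 8.34 ± 1.04 and 8.93 ± 0.970 CPM in WT (SD, n = 3 each). Mars2, Pars2, Wars2 and Yars2 held 91 to 181 reads a library, which limits the differences detectable at this depth.

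Cytosolic and mitochondrial partners were set side by side by amino acid. Among 17 pairs, in which Eprs and Fars2 each stand in more than one, both genes were called in 1, Farsa and Fars2 (log2 fold changes 0.25 and 0.28), a single gene was called in 9 and neither in 7. Eprs and Ears2, which charge glutamate, had -0.11 and 0.93, Aars and Aars2 0.54 and 0.34, Nars and Nars2 -0.0057 and -0.49, and Iars and Iars2 0.17 and -0.31. Wars and Wars2 lay close, at 0.23 and 0.34, with the call on the more abundant Wars alone. Over all tested rows 25.8% were called in either direction. Neither the pair counts nor differences within pairs were tested.

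Levels, compared per kb of the longest principal transcript, were mostly higher for cytosolic than for mitochondrial genes. Cytosolic genes had a median of 25 CPM per kb in KO and 23.8 CPM per kb in WT, and the 15 mitochondrial genes other than Lars2 had 5.76 CPM per kb in KO and 5.67 CPM per kb in WT. In WT, cytosolic genes ran from 8.73 for Vars to 73.3 CPM per kb for Nars, and mitochondrial ones from 0.739 for Mars2 to 13.2 for Ears2, which in KO reached 25.2 CPM per kb. Wars, Sars, Kars and Gars followed Nars in WT at 44.9, 42.5, 40.4 and 39.1 CPM per kb. The WT libraries of Nars, Wars, Sars and Kars did not overlap in that order, while those of Kars and Gars did. The cytosolic partner was the more abundant per kb in 16 of the 17 pairs in WT, by 1.07-fold for Iars over Iars2 and 51-fold for Nars over Nars2; the exception was Lars and Lars2.

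**Figure D4:**
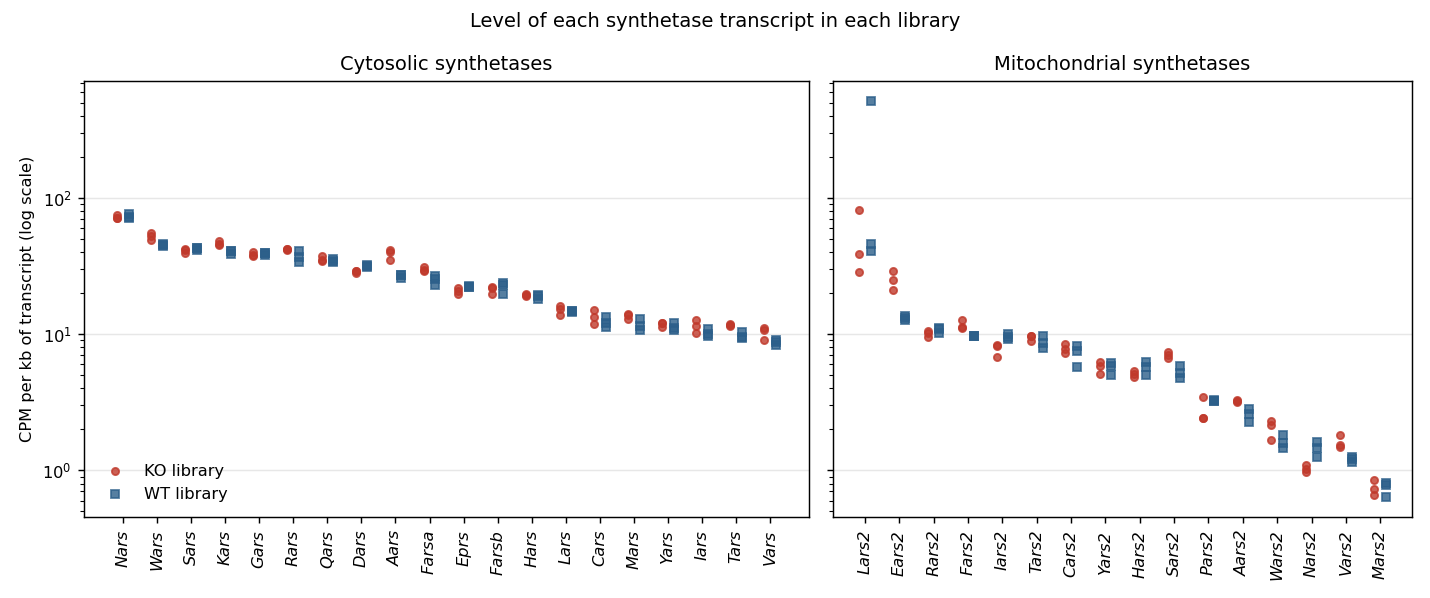
Level of each synthetase transcript in every library as CPM per kb on a log axis, cytosolic on the left and mitochondrial on the right, ordered by the WT mean, with KO libraries as red circles and WT libraries as blue squares. Most mitochondrial genes lie below the cytosolic ones, Ears2 and Aars show the widest gaps, Lars2 aside, between genotypes, and the WT 2 point of Lars2 stands alone at the top.

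The genes are scattered over 15 chromosomes, with at most 5 on one. Iars2 and Eprs lie 33.6 kb apart on chromosome 1, with log2 fold changes of -0.31 and -0.11. Vars and Vars2 lie 639.3 kb apart on chromosome 17 (0.24 and 0.42), and Aars and Kars 935.8 kb apart on chromosome 8 (0.54 and 0.21). Hars and Hars2, both histidyl, overlap head to head on chromosome 18 (0.047 and -0.14), and neither was called. By catalytic fold, class I enzymes gave 3 calls higher and 1 lower of 18 and class II enzymes 6 higher and 1 lower of 17, with Eprs, which joins both folds, left out. The shares called were 22.2% and 41.2%, against 25.8% of all tested rows, and the difference between the classes was not tested.

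Genes around charging were mostly not called, as were most of all tested rows, of which 25.8% were called in either direction. Counts in lists of 4 to 8 genes say little beside that share. Of 4 tested among other synthetases and the selenocysteine route, Tarsl2, a second threonyl-tRNA synthetase gene, was called lower at 4.97 ± 0.340 CPM in KO and 7.05 ± 1.27 CPM in WT (SD, n = 3 each; edgeR adjusted p = 0.0352), a call lost in 6 alternatives. Of 5 genes for editing or recycling charged transfer RNA, 0 were called, and Prorsd1 had the lowest p (log2 fold change -0.42, edgeR adjusted p = 0.111). Of 8 genes for maturation and export, 1 was called higher, Trmt61a, which encodes the catalytic subunit of a transfer RNA methyltransferase, at 13.3 ± 0.712 CPM in KO and 10.2 ± 0.5 CPM in WT (SD, n = 3 each; edgeR adjusted p = 0.0175), a call lost without KO 3 or without WT 1. Of 5 genes for sensing uncharged transfer RNA, 1 was called higher, Gcn1l1, for the GCN2 activator GCN1 (84.9 ± 7.05 CPM in KO and 70.9 ± 9.52 CPM in WT, SD, n = 3 each; edgeR adjusted p = 0.047), a call that 6 alternatives lost and whose groups overlapped. Atf4 itself had 279.8, 259 and 283.4 CPM in KO libraries and 248, 250.6 and 226.3 CPM in WT libraries and did not pass (log2 fold change 0.18 ± 0.07, edgeR adjusted p = 0.0639).

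ATF4 target genes other than synthetases gave more calls, mostly on the higher side. Of 22 tested, 9 were called higher (40.9%, against 13.8% of all tested rows) and 3 lower (13.6%, against 12.0%). The lower share lay near the background, and the median log2 fold change was 0.24. Slc7a5, for a transporter of large neutral amino acids, averaged 22.7 ± 2.18 CPM in KO and 14.2 ± 0.869 CPM in WT (SD, n = 3 each), a log2 fold change of 0.68 (edgeR adjusted p = 0.00025). Ddit3, for the stress transcription factor CHOP, averaged 91.8 ± 4.26 CPM in KO and 63.8 ± 6.90 CPM in WT (SD, n = 3 each; log2 fold change 0.52, edgeR adjusted p = 0.000184); it overlaps 1.99% of the exon bases of Mars on the other strand. Atf3, for another stress-induced factor, and Stc2, for a secreted glycoprotein, had log2 fold changes of -0.43 and -1.63 (edgeR adjusted p = 0.000409 and 0.000264). The list was written with earlier results of these data known, and its counts are a description.

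**Figure D5:**
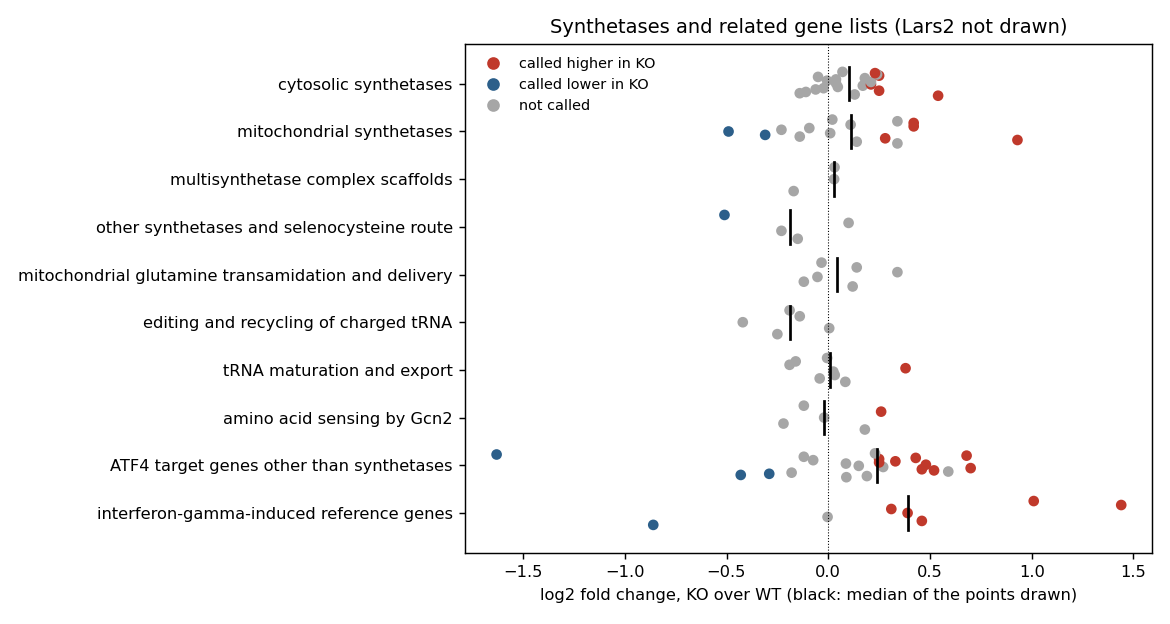
Log2 fold change (KO over WT) of each tested gene in the synthetase lists and in the lists around them, coloured by call, with a black line at the median of the points drawn. Cytosolic synthetases cluster near 0 with Aars at 0.54, the mitochondrial ones spread from -0.49 to 0.93 (Lars2 not drawn), and the ATF4 and interferon-γ lists hold red and blue points.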

How the data were processed

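The authors' deposited table holds raw read counts per gene symbol for 6 libraries. Whether the 3 libraries of a genotype stem from different animals or cultures is not stated in the labels, and the p-values therefore describe only how far these libraries spread, possibly for technical reasons. The build mm10 and the tools TopHat2, HISAT2, HISAT, SAMtools, HTSeq and DESeq2 are named, per the submitters' processing notes, without versions or roles. The sources used here do not give the annotation or the strand setting.

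From these counts, rows were tested with edgeR 4.0.16 (quasi-likelihood F test, TMM scaling, R 4.3.3) after its filter (minimum count 10), leaving 13249 rows tested and 17338 untested. Benjamini-Hochberg adjusted p under 0.05 was called, and each SE was derived from the log2 fold change and its F statistic. CPM used the scaled library sizes. Total counts of 14668641 to 17884160 limit precision mainly for low genes, and intervals from counts would cover counting error only. Libraries of one genotype differed by more than sampling noise (chi-square per degree of freedom 4.10 to 19.1). A permutation test of 3 libraries against 3 was not used, since it cannot fall under 0.05.

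Positions and overlaps came from GENCODE on GRCm38, which matched 94.9% of rows, and promoter windows from RefSeq on GRCm38.p6, matched by symbol. Alternatives were DESeq2 1.42.0 size factors and Wald test, limma 3.58.1 voom, library size alone, other count filters, robust dispersion, a replicate block, an offset for GC content and length (98.5% of tested rows had both), and leaving out libraries; the fit without WT 2 and KO 1 was chosen after seeing the data. The fitting steps were tested on simulated data. Members and lists were chosen with earlier results of these data known. Values per library are given for Wars, for the 6 cytosolic and 6 mitochondrial genes with the lowest p and for called genes with a log2 fold change of at least 0.5 in size; in each other list, for up to 4 called genes with the lowest p, or else the lowest-p gene, and for Epas1. One gene that this rule names is not reported here. Further genes with values were named after those values were seen.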

Additional observations from a re-analysis of the deposited data

How the results depend on the processing

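Over 16 alternatives, the 11 called synthetases gave 176 values, of which 134 stayed called in the same direction, 42 missed the threshold and 0 changed sign; Aars and Ears2 were called in all 16. The number of cytosolic genes called higher was 8 with library size alone and 1 to 8 with a library left out, and 0 were called lower throughout. For mitochondrial genes called higher, the number was 2 with the GC and length offset and 1 to 4 with a library left out. For those called lower, it was 1 with library size alone, the DESeq2 Wald test, limma-voom and the replicate block, and 0 to 2 with a library left out. Over all rows, 3412 calls became 2127 to 3614 with a library left out. Wars lay between 0.18 and 0.27 with a library left out. The mitochondrial median was 0.204 without WT 2 and 0.167 without WT 2 and KO 1.

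The replicate block gave 5 cytosolic and 3 mitochondrial genes higher, 1 mitochondrial gene lower, 3247 calls over all rows and 0.22 for Wars. Deviations of same-numbered libraries correlated at 0.0146, -0.11 and 0.0799, and not every library correlated best with its own number. The highest value was 0.184, for KO 1 with WT 2. Each deviation was taken from the mean of the 3 libraries of its genotype, which ties these correlations to one another. They therefore cannot decide whether the numbers pair the libraries.

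Uncalled genes changed sign in 17 values. Library size alone gave 0.01 for Gars and 0.027 for Nars, and no count filter gave 0.0065 for Nars. The GC and length offset gave -0.011 for Qars and for Yars. Nars was 0.0071 without KO 1, 0.0069 without KO 2 and 0.033 without WT 1. Lars was -0.01 and Mars2 -0.09 without KO 2, Qars -0.0041 without KO 3, and Mars2 -0.086 without WT 1. Yars2 was -0.049 without KO 1, -0.056 without WT 3 and -0.026 without WT 2 and KO 1, where Farsb was 0.041. Lars2 was 0.22 without WT 2. The other ends of the ranges with a library left out were 0.098 for Lars, 0.07 for Qars, 0.096 for Mars2, 0.10 for Yars2 and -2.56 for Lars2. The cause of these changes was not tested. Low read numbers limit what could be seen for Nars2 (62 to 93 reads a library) and Vars2 (81 to 140).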
